A study of Homo sapiens with 5 samples.

Results

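HOX genes encode the homeodomain transcription factors that give cells their place along the head-to-tail axis of the embryo, and in humans they lie in the gene clusters HOXA, HOXB, HOXC and HOXD. Their level was examined on 5 Affymetrix human genome expression arrays of HES2 cells, a human embryonic stem cell (hESC) line. The members are the genes whose symbol in the platform annotation is HOX followed by a cluster letter and a number, on probe sets that name no other gene; where a gene has several, its brightest one by the mean of all 5 arrays stands for it. This gave 24 HOX genes, of 39 in the RefSeq annotation and of 11963 genes with a single-gene probe set on the arrays. Members of paralog groups 1 to 7 are called anterior and those of groups 8 to 13 posterior, with 12 genes in each. HOXA was represented by 1 of its 11 genes (HOXA2), HOXB by 9 of 10, HOXC by 7 of 9 and HOXD by 7 of 9. HOXD3 had probe sets shared with other genes, and the other 14 genes had no probe set named here and were not analysed.

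Cells of both groups had been transduced with a lentiviral vector. In it an H1 promoter drives miR-122, a liver-enriched microRNA, and an EF1α promoter drives a red fluorescent reporter. The study judged from the reporter that transduction reached most HES2 cells with both vectors. No sorting for the reporter is stated, so some cells may lack the vector. In the wt group (2 arrays) the vector encodes wt miR-122, and in the mutant group (3 arrays), which is the control, miR-122 with mutations in its seed, the stretch that pairs with target mRNAs. All cells had been kept on human foreskin feeder cells with bFGF, and were then left to differentiate spontaneously for 2 weeks on fibronectin in KO medium without feeders and bFGF. The study's methods describe the arrays of a group as independent experiments. The array medians lay between 6.32 and 6.36 and any pair of arrays correlated at 0.995 to 0.997 across probe sets. miR-122 itself is not measured by these arrays, so the labels could not be checked against it here. The study reports from qRT-PCR that miR-122 was high in HES2 cells carrying the wt vector and stayed high as they differentiated.

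HOX genes of a cluster stand in the order in which they act along the axis: low-numbered genes, at one end of a cluster, are active first and reach the hindbrain, and high-numbered genes are active later and pattern the lumbar, sacral and tail region and the ends of the limbs. In undifferentiated stem cells the clusters are held silent by Polycomb complexes, and retinoic acid, Wnt and FGF signals together with CDX factors open them during differentiation. HOX proteins bind DNA with TALE cofactors of the PBX and MEIS families, and the clusters also hold microRNA genes that act on HOX transcripts.

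The sequences below are shown because the seed of miR-122 is what the vectors of both groups differ in, and because miR-10a and miR-196 are among the microRNAs encoded within or beside the HOX clusters. They are the RefSeq mature sequences (build GRCh38.p14), 5′ to 3′, with bases 2 to 8, the seed, in capitals. The sequence of the mutant miR-122 was not used here.
hsa-miR-122-5p: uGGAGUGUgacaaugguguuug
hsa-miR-10a-5p: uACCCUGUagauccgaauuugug
hsa-miR-196a-5p: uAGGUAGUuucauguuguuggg
hsa-miR-196b-5p: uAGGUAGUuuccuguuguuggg
miR-122 lies at chr18:58451088-58451109 on the plus strand, outside all HOX clusters. miR-10a lies in the HOXB cluster at chr17:48579904-48579926 on the minus strand. miR-196a is encoded in HOXB (chr17:48632532-48632553, minus strand) and in HOXC (chr12:53991762-53991783, plus strand), and miR-196b in HOXA (chr7:27169528-27169549, minus strand). miR-196a and miR-196b share their seed AGGUAGU, which differs from the seed of miR-122, GGAGUGU, and from that of miR-10a, ACCCUGU. None of these microRNAs was measured on the arrays.

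Most HOX genes were dim on these arrays. Values are deposited RMA values on the log2 scale, without detection calls. Olfactory and taste receptor genes, little used outside the sensory organs, served as a guide to the level of a probe set with little transcript: the means of their 51 probe sets had a median of 3.64, with a 95th percentile at 4.997, against a median of 6.35 over all probe sets. Of the 24 HOX genes, 8 had a mean above that 95th percentile: HOXB1, HOXB2, HOXB5, HOXC4, HOXC5, HOXC8, HOXC11 and HOXD9. The member just above it was HOXC8 with a mean of 5.01, and the one just below was HOXC6 with 4.78. By position, 5 of 12 anterior and 3 of 12 posterior genes were above it. Probe sets differ in affinity, so the means of different genes are no ranking of their transcripts, and a dim probe set is not evidence that a gene was silent.

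HOXB2, which patterns the hindbrain, was the 1 HOX gene above the median of all probe sets. Its values were 8.36, 8.49 and 8.38 on the mutant arrays and 8.31 and 8.43 on the wt arrays. The groups overlapped, and the difference (wt minus mutant, here and below, on the log2 scale) was -0.04 (SE 0.082, adjusted p = 0.870, limma with Benjamini-Hochberg adjustment over all probe sets), with a 95% confidence interval from -0.23 to 0.15. Its sign turned to 0.024 without wt replicate 1 and to 0.0014 without mutant replicate 2.

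**Figure D1:**
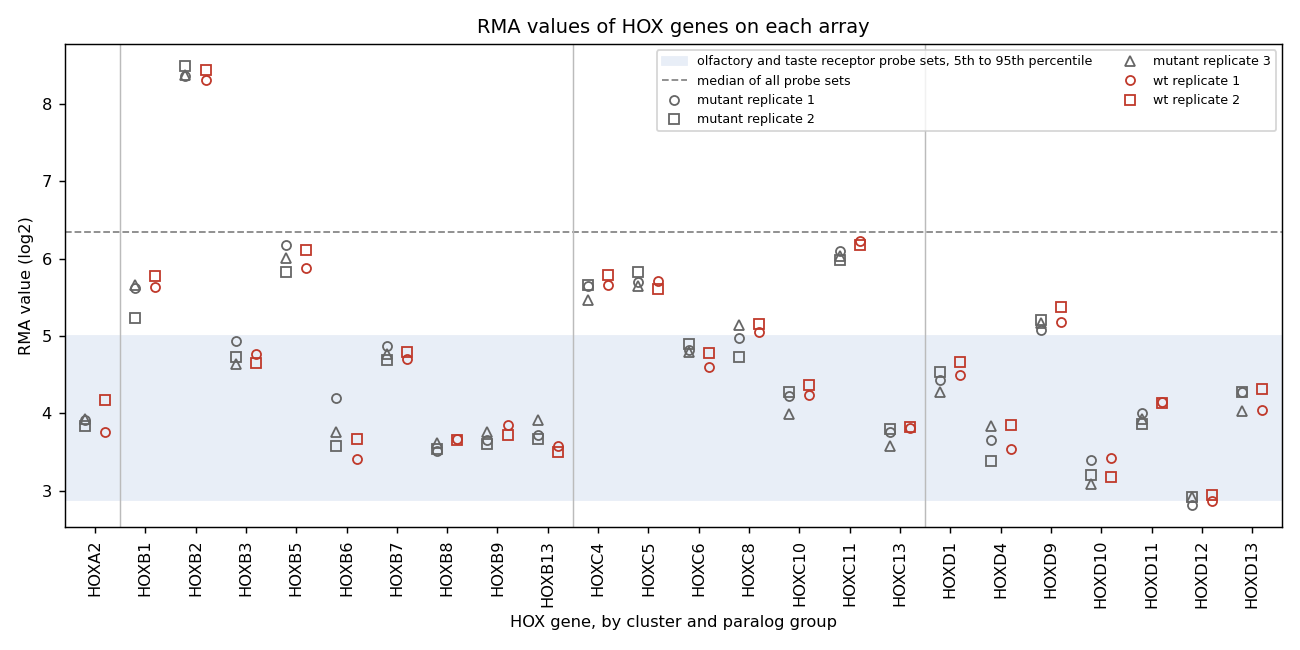
Each symbol is the RMA value (log2) of a HOX gene on 1 array, with mutant arrays in grey and wt arrays in red, and genes ordered by cluster and paralog group. HOXB2 is the only HOX gene above the median of all probe sets (6.35, dashed line), and 16 of the 24 genes have means at or below the 95th percentile of the receptor probe sets (4.997, upper edge of the shaded band).

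No HOX gene passed the adjusted threshold of 0.05 in either direction (0 of 24, limma), against 0.383% of the 22215 probe sets tested (85), with 0.194% higher and 0.189% lower in wt. The smallest adjusted p among them was 0.272, for HOXD11. At an unadjusted p under 0.05, 1 HOX gene was higher (HOXD11) and 1 lower (HOXB13) in wt, against 8.06% of all probe sets higher and 6.37% lower, or 14.4% in both directions together. The test per probe set that the study's methods name called 1 HOX gene, HOXD11, at its own unadjusted threshold, and none after adjustment. The wt and mutant arrays did not overlap for 6 of the 24 genes (25%), against 32.7% of all probe sets (20.3% higher, 12.5% lower). HOXB8, HOXC11, HOXC13 and HOXD11 were above the mutant arrays on both wt arrays, and HOXB13 and HOXC6 were below them.

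The bounds on these differences were narrow on the array's scale. The differences ran from -0.31 (HOXB6) to 0.21 (HOXD11), with a median standard error of 0.092 (0.088 over all probe sets). For 23 of the 24 genes the whole 95% confidence interval lay within a 1.5-fold change either way (0.58 on the log2 scale), and HOXB6 was the exception. In 22 genes the difference was no larger than the range of the arrays within a group, and in the other two, HOXC11 and HOXD11, it was larger. For the 16 genes at the level of the receptors, RMA values compress changes in transcript, so these intervals bound the array signal and not the transcript.

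The anterior genes lay on both sides of 0. Their median difference was -0.02, with 5 of 12 higher and 7 lower in wt. HOXB1, which specifies a hindbrain segment, had the highest anterior difference. Its values were 5.62, 5.23 and 5.66 on the mutant arrays and 5.64 and 5.78 on the wt arrays. The second mutant array was low, the groups overlapped, and the difference was 0.21 (SE 0.133, adjusted p = 0.528). Leaving out each array in turn gave 0.07 (without mutant replicate 2) to 0.28. HOXD1, its paralog in HOXD, measured 4.43, 4.53 and 4.28 on the mutant and 4.49 and 4.66 on the wt arrays. These also overlapped, with a difference of 0.17 (SE 0.0995, adjusted p = 0.498), with 0.08 to 0.25 when each array was left out, and its other probe set gave 0.07.

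HOXB6 had the most negative difference of all HOX genes. It measured 4.20, 3.58 and 3.76 on the mutant arrays and 3.41 and 3.67 on the wt arrays. The first mutant array stood above the others, the groups overlapped, and the difference was -0.31 (SE 0.173, adjusted p = 0.463). Leaving out each array in turn gave -0.45 to -0.14 (the latter without mutant replicate 1), and the gene's other probe set gave 0.05. HOXC6, the paralog of HOXB6 and a regulator of motor neuron identity at the level of the forelimb, measured 4.82, 4.90 and 4.79 on the mutant arrays. On the wt arrays it measured 4.61 and 4.78, both below every mutant array. The difference was -0.15 (SE 0.085, adjusted p = 0.483), and it was -0.06 without wt replicate 1 and -0.23 without wt replicate 2.

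The other named anterior genes differed less. HOXB3, a hindbrain gene, had values of 4.64 to 4.93 on the mutant and 4.65 to 4.77 on the wt arrays, and its difference was -0.05 (adjusted p = 0.849). HOXB5, which acts in neural crest and the gut's nervous system, lay at 5.83 to 6.18 and 5.88 to 6.11, with a difference of -0.01 (adjusted p = 0.976). The ranges of both genes overlapped, and both turned sign when single arrays were left out. HOXC4 lay at 5.47 to 5.66 on the mutant and 5.66 to 5.78 on the wt arrays, with a difference of 0.13 (adjusted p = 0.566). HOXC5 lay at 5.64 to 5.82 and 5.61 to 5.71, with a difference of -0.06 (adjusted p = 0.782). The groups overlapped in both, and 11 of the 12 anterior genes overlapped in all, HOXC6 being the exception. Groups apart were thus 8.33% of the anterior genes, beside 32.7% of all probe sets. HOXA2, the single gene measured from HOXA, had its lowest and its highest value on the 2 wt arrays (3.77 and 4.18), around the mutant values of 3.84 to 3.93.

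The posterior genes were mostly higher in wt by their means. Their median difference was 0.11, with 10 of 12 higher and 2 lower, while 57.9% of all probe sets were higher. Of the receptor probe sets, about as dim as most posterior genes, 66.7% were higher. In 5 of the 12 the groups did not overlap (4 higher, 1 lower), which is 41.7%, beside 32.7% of all probe sets. HOXD11, which shapes the forearm and kidney, measured 4.0004, 3.86 and 3.93 on the mutant arrays and 4.15 and 4.14 on the wt arrays. Both wt arrays were above every mutant array, and the difference was 0.21 (SE 0.078, adjusted p = 0.272). Leaving out each array in turn kept it between 0.18 and 0.25. HOXC11, its paralog, measured 6.10, 5.98 and 6.04 on the mutant and 6.22 and 6.17 on the wt arrays. These did not overlap either, with a difference of 0.16 (SE 0.077, adjusted p = 0.402).

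HOXC8, which acts at the level of the brachial and thoracic spinal cord, lay at 4.98, 4.73 and 5.14 on the mutant arrays and 5.05 and 5.16 on the wt arrays. The third mutant array fell between the wt arrays, and the difference was 0.16 (SE 0.121, adjusted p = 0.596). It was 0.05 without mutant replicate 2, the lowest array, and up to 0.25 without another. HOXB13, which lies apart from the rest of its cluster and acts in the tail region and prostate, went the other way. It measured 3.72, 3.68 and 3.91 on the mutant arrays and 3.58 and 3.50 on the wt arrays. The wt arrays were below every mutant array, and the difference was -0.23 (SE 0.093, adjusted p = 0.316). HOXB8 and HOXC13, outside the rule for named genes and given here because their groups did not overlap, had differences of 0.10 (adjusted p = 0.570) and 0.11 (adjusted p = 0.615). Of these genes with groups apart, only HOXC11 was above the level of the receptors.

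**Figure D2:**
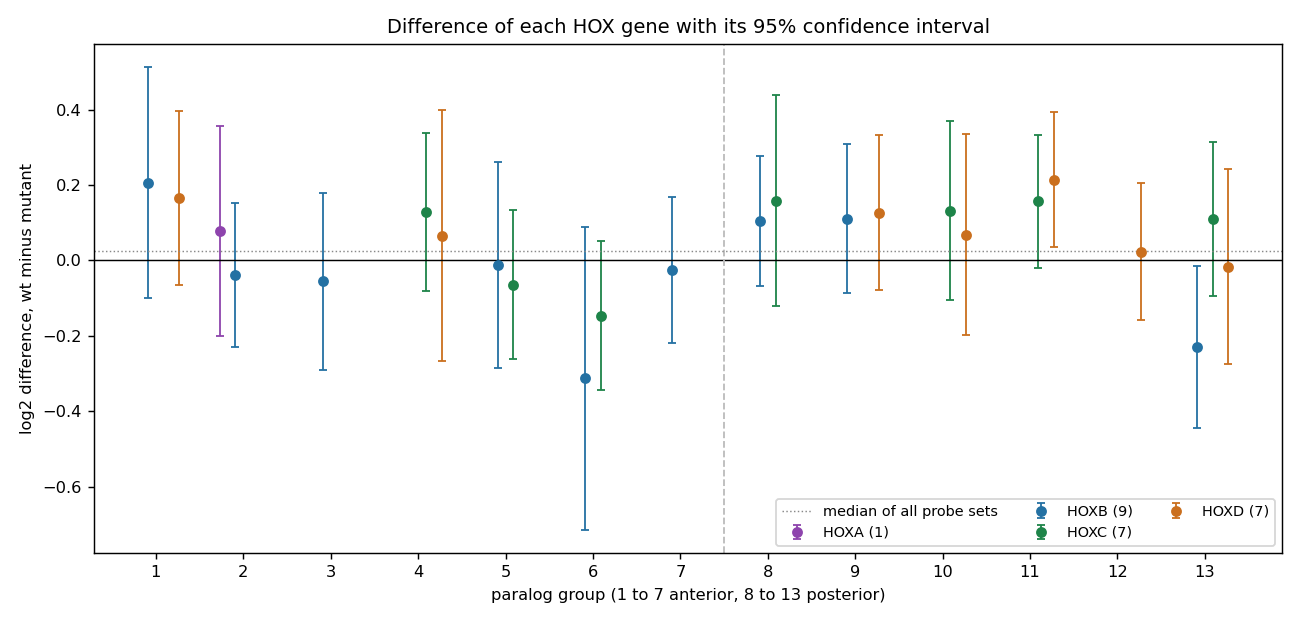
Each point is the log2 difference of a HOX gene (wt minus mutant) with its 95% confidence interval from limma, placed by paralog group and coloured by cluster. The 10 posterior genes above 0 lie between 0.02 and 0.21, the anterior genes scatter on both sides of 0, and the intervals of HOXD11 and HOXB13 are the only 2 that leave out 0.

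By cluster the medians were small. They were -0.03 in HOXB (3 genes higher, 6 lower), 0.13 in HOXC (5 higher, 2 lower) and 0.07 in HOXD (6 higher, 1 lower). All HOX genes together had a median of 0.07 with 15 higher and 9 lower (62.5% higher), against 0.03 and 57.9% over all probe sets. The receptor probe sets, which are about as dim, had a median of 0.05 with 66.7% higher, and all probe sets below the array median had 0.04 with 61.4% higher. The 8 HOX genes above the level of the receptors had a median of 0.13, and the other 16 had 0.07.

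Within clusters, neighbours often shared a sign. HOXB2 to HOXB7 held 5 measured genes in a row that were lower (-0.31 to -0.01), with HOXB1 before them and HOXB8 and HOXB9 after them higher. HOXC8 to HOXC13 held 4 in a row that were higher (0.11 to 0.16), and HOXD1 to HOXD12 held 6 (0.02 to 0.21). The anterior and posterior medians were -0.03 and 0.10 in HOXB, -0.06 and 0.14 in HOXC, and 0.12 and 0.07 in HOXD, so in HOXD the anterior genes did not lie below the posterior ones. Of 10 paralog groups with more than 1 measured gene, 8 had a single sign. The 2 others were group 2, with HOXA2 at 0.08 and HOXB2 at -0.04, and group 13, with HOXB13 at -0.23, HOXC13 at 0.11 and HOXD13 at -0.02. Genes of these rows are measured on the same 5 arrays, paralogs can share sequence with each other's probes, and most of the differences are within the spread of the arrays, so the signs are a description.

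Probe sets of the same gene did not always share a sign. Of 6 genes with several probe sets, HOXB7, HOXD1 and HOXD9 had 1 sign throughout, and HOXB5, HOXB6 and HOXD13 had both. The widest spread was that of HOXB6, from -0.31 to 0.05. None of the 31 HOX probe sets passed the adjusted threshold. For 8 of the 24 genes the chosen probe set ends in _x_at or _s_at, meaning that its probes can match several transcripts. Without such probe sets 18 genes were left, and the anterior median was 0.07 in place of -0.02.

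The second wt array stood highest for the HOX genes as a set. The median deviation of the 24 genes from their own means was 0.00, -0.03 and -0.01 on the mutant arrays and 0.01 and 0.07 on the wt arrays. The second wt array gave the highest value of 11 of the 24 genes and the lowest of 2, while over all probe sets it was the highest in 23.7% and the lowest in 22.1%. For anterior genes the wt arrays lay at opposite ends, at -0.07 and 0.07, with the mutant arrays between them at 0.02, -0.05 and 0.00. For posterior genes both wt arrays, at 0.05 and 0.07, were above the mutant arrays at -0.01, -0.03 and -0.05. Over all probe sets the wt arrays were also above, by less, at 0.02 and 0.008 beside -0.007, -0.008 and -0.015. Leaving out each array in turn moved the anterior median between -0.08 and 0.06 and the posterior median between 0.09 and 0.12. The difference between the anterior and posterior genes was not tested, since the members are not replicates.

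**Figure D3:**
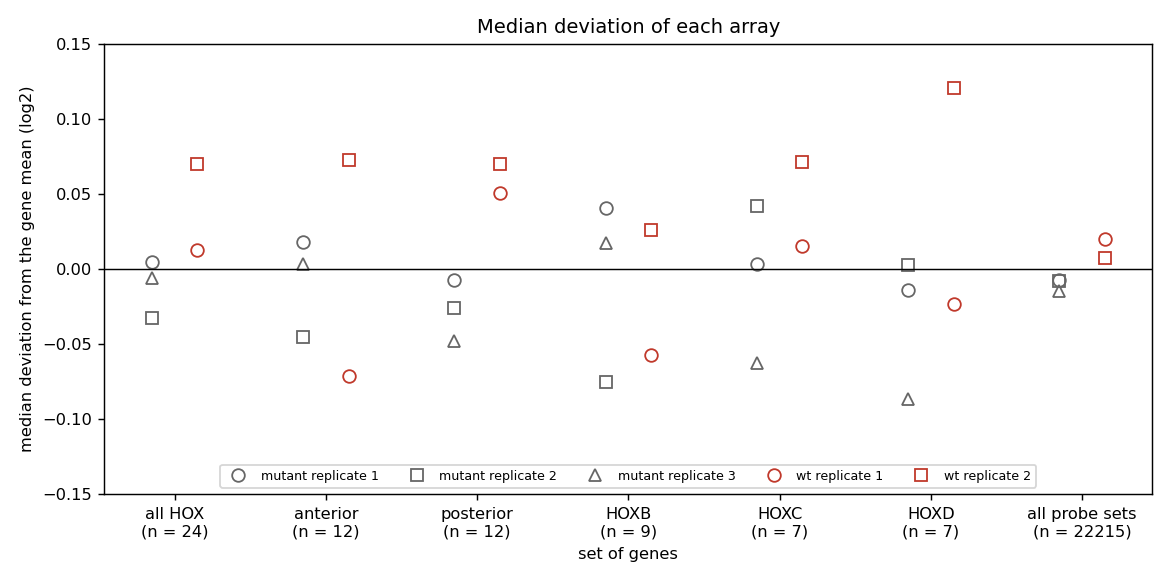
Each symbol is the median, over a set of genes, of an array's deviation from the mean of each gene (log2), for the mutant (grey) and wt (red) arrays. For posterior genes both wt arrays (0.05 and 0.07) lie above the 3 mutant arrays, and for anterior genes the wt arrays (-0.07 and 0.07) lie on both sides of them. Over all probe sets both wt arrays (0.02 and 0.008) also lie above the mutant arrays.

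Few genes that act with HOX genes or open their clusters passed the adjusted threshold. At a share of 0.383% over all probe sets, no call in a list of a few genes says little about them. Of the TALE cofactors, none of 6 measured genes passed the adjusted threshold, and their median difference was -0.10. MEIS2 measured 10.08, 10.22 and 10.07 on the mutant and 9.86 and 9.78 on the wt arrays, a difference of -0.31 (SE 0.083, adjusted p = 0.168) with groups that did not overlap. MEIS1 had -0.34 (adjusted p = 0.416), and its groups overlapped. It passed with the replicate number as a block (-0.45, adjusted p = 0.0164), and leaving out mutant replicate 2 or wt replicate 1 gave -0.16 or -0.20. The block rests on replicates 1 and 2 alone, since mutant replicate 3 has no wt array of its number. Among CDX and other posterior axis factors, none of 10 passed. WNT5A, a ligand that helps the body axis extend, measured 9.002, 8.85 and 9.11 on the mutant and 8.58 and 8.40 on the wt arrays. Both wt arrays were lower, and the difference was -0.50 (SE 0.1003, adjusted p = 0.0926). It passed with the block (adjusted p = 0.0149) and with a trended robust prior, which lets the expected spread follow intensity (adjusted p = 0.0381). CDX4, which activates posterior HOX genes, was dim and had 0.33 (adjusted p = 0.236).

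Retinoid signaling held 1 gene past the threshold among 14, and Polycomb and trithorax regulators 1 among 19, where 0.194% of all probe sets were called higher. CYP26A1, which breaks down retinoic acid and is itself induced by it, measured 8.11, 8.03 and 8.23 on the mutant and 8.67 and 8.73 on the wt arrays. It rose by 0.58 (SE 0.086, adjusted p = 0.0447). ALDH1A3, which makes retinoic acid, had 0.54 (adjusted p = 0.199), with 0.25 without wt replicate 1, 0.83 without wt replicate 2, and an adjusted p of 0.0433 with the block. JARID2, which brings Polycomb complex PRC2 to its targets, measured 9.52, 9.64 and 9.71 on the mutant and 10.35 and 10.28 on the wt arrays, and it rose by 0.69 (SE 0.085, adjusted p = 0.0386). PHC1, a subunit of PRC1, had 0.41 (adjusted p = 0.0934), and passed with the block (adjusted p = 0.0191) and with the trended robust prior (adjusted p = 0.0372). The median differences were 0.11 over the retinoid genes and 0.07 over the Polycomb and trithorax regulators, beside 0.03 over all probe sets.

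Of the genes next to the HOX clusters, 0 of 17 passed and their median was 0.04, beside 0.03 over all probe sets. CALCOCO1, near HOXC, had -0.27 (adjusted p = 0.192), and EVX1, a homeobox gene at the posterior end of HOXA, had 0.22 (adjusted p = 0.3003). None of 8 anterior neural genes, which mark brain regions in front of the HOX domain, passed, with a median of 0.17 and SIX3 at 0.25 (adjusted p = 0.303, and 0.14 without wt replicate 1) and RAX at 0.16 (adjusted p = 0.367). Hindbrain and spinal cord genes had 0 of 9 past the threshold and a median of 0.08. ISL1, a motor neuron and mesoderm factor, had -0.51 (adjusted p = 0.193), with -0.78 without wt replicate 1, -0.24 without wt replicate 2, and an adjusted p of 0.0430 with the block. OLIG2 had 0.10 (adjusted p = 0.568).

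Limb and lateral plate factors, many of which work in tissues where posterior HOX genes act, held 2 of 12 that fell and none that rose, where 0.189% of all probe sets were called lower, with a median of -0.06. HAND1 measured 8.49, 8.46 and 8.56 on the mutant and 7.64 and 7.53 on the wt arrays, and the difference was -0.91 (SE 0.078, adjusted p = 0.0228). TBX3 measured 6.96, 7.08 and 7.14 on the mutant and 6.52 and 6.44 on the wt arrays, a difference of -0.58 (SE 0.083, adjusted p = 0.0427). Both factors are also known from extraembryonic tissue. The probe sets of TBX3, JARID2, MEIS2 and WNT5A end in _s_at, and other probe sets of the companion genes were not examined. None of the calls of HAND1, TBX3, CYP26A1 and JARID2 was kept when any 1 of the 5 arrays was left out, which leaves fewer arrays to test, while their differences stayed within -0.97 to -0.86, -0.62 to -0.54, 0.53 to 0.63 and 0.64 to 0.73.

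On the array's scale, markers of cell states moved with the groups by more than the HOX genes did. Of the markers, 12 of 12 hESC, 17 of 19 fibroblast and 9 of 10 trophoblast ones were above the level of the receptors. Of the HOX genes 8 of 24 were, and dim values are compressed, so these sizes do not compare changes in transcript. Of 12 undifferentiated hESC markers, 4 rose and none fell, beside 0.194% of all probe sets called higher. All 12 were higher with groups that did not overlap, beside 20.3% of all probe sets, and the median difference was 0.51. The study had already reported hESC markers, NANOG and SOX2 among them, as higher in wt on these arrays. The marker lists were chosen with earlier results known, so these counts are a description and no separate check. DNMT3B, a DNA methyltransferase of the pluripotent state, had 0.72 (adjusted p = 0.0333), and UTF1, a stem cell chromatin factor, 0.75 (adjusted p = 0.0424). Their probe sets end in _s_at and _x_at, so their probes can match several transcripts. Of 19 fibroblast and mesenchymal markers, none passed, 16 were lower in wt and the median was -0.42. PDGFRB, a growth factor receptor, had -0.56 (adjusted p = 0.0521) and COL5A1, a collagen chain, -0.77 (adjusted p = 0.0577). Both passed under some alternatives, with adjusted p of 0.0199 and 0.0216 with the trended robust prior and 0.00586 and 0.00081 with the block. Of 10 trophoblast markers, 8 were lower and 2 higher in wt by their means. The groups did not overlap in 4 of the lower and both of the higher ones, beside 12.5% and 20.3% of all probe sets. Past the threshold 2 fell, beside 0.189% of all probe sets, namely CRH (-1.04, adjusted p = 0.0386), a placental hormone, and HSD3B1 (-1.56, adjusted p = 0.0424), an enzyme of progesterone synthesis, and the median was -0.16. Leaving out any 1 array also removed the calls of DNMT3B, UTF1, CRH and HSD3B1.

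The mean level of the hESC markers was 8.26 to 8.41 on the mutant and 8.87 on both wt arrays. That of the fibroblast markers was 8.44 to 8.78 and 8.07 to 8.31, and that of the trophoblast markers 7.88 to 8.10 and 7.49 to 7.60. The trophoblast markers did not move as 1 set. HSD3B1, CGA, CRH and KRT7 had differences of -1.56, -1.08, -1.04 and -0.77. GATA3, GATA2, TFAP2A and GCM1 had -0.18, -0.13, -0.08 and -0.05, while TFAP2C (0.32) and PSG1 (0.16) were higher. In these bulk samples fewer cells of a type and less RNA per cell cannot be told apart, and the part of the makeup of the cultures in the HOX values was not tested. Fibroblasts of the foreskin, from which the earlier feeder cells came, are known to carry HOX transcripts of their own, and the part of remaining feeder cells was not tested.

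**Figure D4:**
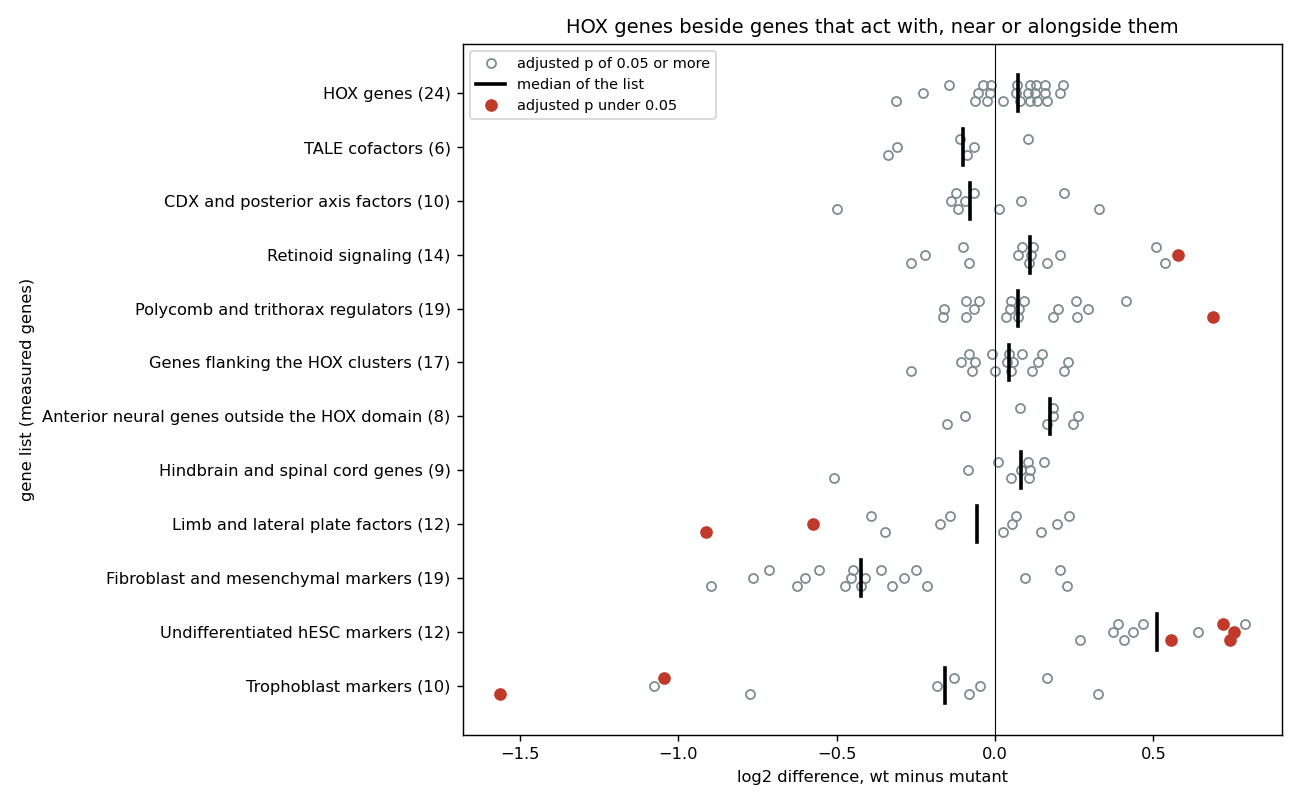
Each circle is the log2 difference (wt minus mutant) of 1 gene, by list, with the number of measured genes in parentheses, filled red where the adjusted p from limma was under 0.05, and the bar is the list's median. The 24 HOX genes lie between -0.31 and 0.21 with no filled circle. The medians of the hESC markers (0.51) and fibroblast markers (-0.42) lie to either side of that range. Some fibroblast markers lie within it, such as DCN (-0.21), and 3 are above 0, the highest being THY1 (0.23).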

How the data were processed

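RNA was hybridised to 5 arrays. The deposited values are RMA output on the log2 scale, made by the authors and given without detection calls. The study's methods name an R package release for RMA, and no genome build is given in the sources used here. The table holds 22277 probe sets, 62 of them controls. The other 22215 entered 1 limma model (version 3.58.1, R 4.3.3, functions lmFit and eBayes) that had a term for group alone, and p-values were adjusted by Benjamini-Hochberg over all 22215. Probe sets were named through the platform annotation, with symbols updated by Entrez ID for 19052 of them; 19064 name 1 gene, 1043 several and 2108 none. Precision is limited by the number of arrays: the residual degrees of freedom were 3, and an exact permutation test of 2 against 3 arrays cannot go below a two-sided p of 0.1. Levels of different probe sets were set beside each other only to choose probe sets and named genes and as a guide to which are dim.

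The named HOX genes are the 5 with the largest differences each way and the 6 with the highest mean, and, had there been any, those past the threshold or with groups apart by at least 0.3; of each companion list the 2 members with the smallest adjusted p are named. A further item of the rule is not reported here. The members, lists and this rule were chosen with earlier results of these data known. Alternatives were the methods' t-test, a trended robust prior, a filter on dim probe sets, leaving out probe sets ending in _x_at or _s_at, a replicate block, array weights, centring, leaving out each array, and, for HOX genes alone, other probe sets of a gene. Plots were made in Python 3.11.15 (matplotlib 3.10.9). The study's microRNA profiles and sodium butyrate experiments were not analysed here.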

Additional observations from a re-analysis of the deposited data

How the results depend on the processing

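The count of HOX genes past the adjusted threshold was 0 under each alternative that gave such a count with adjustment (1 HOX gene was tested at or above the median level); taken unadjusted, the methods' t-test called 1. Over all probe sets the count of 85 went to 0 with that test after adjustment and 2424 at its own threshold (1551 higher, 873 lower), to 320 with the trended robust prior (137 higher, 183 lower), to 159 among probe sets at or above the median level (62 higher, 97 lower), and to between 0 and 3 with each array left out. That leaves fewer arrays to test, and without a wt array the lone one is assumed to vary like the mutant arrays. With the replicate number as a block the count was 895 (364 higher, 531 lower). Mutant replicate 3 has no wt array of its number, so the block takes its differences from replicates 1 and 2 alone. These equal the differences without mutant replicate 3, where 0 probe sets passed, and the block leaves fewer residual degrees of freedom than the main fit. The labels give no pairing. The deviations of same-numbered arrays correlated at 0.147 and 0.123 over 2 pairs. The 2 wt arrays deviate from their mean as mirror images, so these values are not separate checks. The block changed no call of a HOX gene; among the named companion genes it added those of MEIS1, WNT5A, ALDH1A3, PHC1, ISL1, PDGFRB and COL5A1.

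The median difference of HOX genes was 0.045 with the block, 0.13 above the level of the receptors, and -0.039 at or above the median level, where HOXB2 alone was left and the posterior, HOXC, HOXD and HOXA medians could not be had. Leaving out each array moved it between 0.016 and 0.11, the anterior median between -0.080 and 0.063, the posterior one between 0.087 and 0.12, and those of HOXA, HOXB, HOXC and HOXD between -0.13 and 0.28, -0.069 and 0.027, 0.046 and 0.16, and 0.027 and 0.21. The posterior median was 0.090 and that of HOXC 0.046 with the block, and the posterior one 0.16 above the level of the receptors. Without probe sets ending in _x_at or _s_at the anterior median was 0.068 and that of HOXB 0.052.

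Signs turned for HOXB6, at 0.052 without those probe sets and at its dimmest one, and for HOXB5, at 0.0086 at its dimmest one. With each array left out, HOXB2 ranged from -0.10 to 0.024, HOXB3 from -0.12 to 0.027 and HOXB5 from -0.13 to 0.10. The cause of these moves was not tested. Signal over background limits the 16 genes at the level of the receptors.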

Other observations

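HOXD3 was covered only by probe sets that also name HOXD4 and LOC401021, so its values could not be given alone. The first of these measured 3.26, 3.23 and 3.35 on the mutant and 3.38 and 3.44 on the wt arrays, and its difference was 0.13 (adjusted p = 0.487, limma). A second measured 3.30, 3.32 and 3.47 on the mutant and 3.78 and 3.45 on the wt arrays, with a difference of 0.25 (adjusted p = 0.353). The third had -0.08 (adjusted p = 0.766), so the shared probe sets did not have 1 sign, and all were at or below the median of the receptor probe sets.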
